A study of Mus musculus domesticus with 6 samples.

Results

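The erythroid master transcription factors described here are 10 genes, chosen by name as GATA1, its complex partners and the factors that act beside it. All 10 were matched by Ensembl identifier among the 55359 entries of each table, and all 10 were among the 13117 genes with enough counts to be tested. They were measured by total RNA sequencing of mouse burst-forming erythroid progenitors (BFU-E), an early committed stage of the red cell lineage, sorted from fetal liver at stage E14.5. There were 3 Cre-positive libraries (Exosc3 fl/fl Cre+) and 3 Cre-negative libraries (Exosc3 fl/fl Cre-). Embryos of both groups carried floxed Exosc3, the gene of an RNA exosome subunit, and the Cre comes from a Vav1-Cre transgene, active in blood cells generally. Per the design text each of 3 litters gave 2 samples, and the labels give the same sort for both groups: GFP+, lineage-negative, Kit+ and low for CD24 and CD71. The comparison asks how the transcripts of these regulators differ when the exosome subunit is targeted in the progenitors.

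GATA1 is the zinc finger factor that red cells cannot mature without. On erythroid enhancers it sits beside a complex in which TAL1, a basic helix-loop-helix protein, is joined through LMO2 and the scaffold LDB1, and this complex loops enhancers to promoters. KLF1, another zinc finger activator, works at many of the same genes, while ZFPM1 (FOG1), GFI1B, CBFA2T3 (ETO2) and BCL11A carry corepressors to them, and NFE2 pairs with small MAF proteins on globin enhancers.

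The libraries held 89629949 to 124931215 expected counts, and p-values measure only the spread between these samples, since the labels number the replicates without saying what a number shares. The targeted gene Exosc3 was at 26.8, 22.1 and 30.2 CPM (counts of a gene relative to the library total, with library sizes scaled by TMM) in Cre-positive replicates 1, 2 and 3, against 51.9, 44.3 and 48.0 CPM in the Cre-negative replicates, with no overlap. Reads of the reporter eGFP were at 36.5 to 39.3 CPM in Cre-positive and 0 to 1.59 CPM in Cre-negative libraries, although the labels give a GFP+ gate for both. By edgeR over all genes, neither Exosc3 (log2 fold change -0.87, adjusted p = 0.259) nor eGFP (5.48, adjusted p = 0.187) passed. DESeq2 called Exosc3 lower (adjusted p = 0.00325). A gene that did not pass edgeR's test may therefore still differ. Among sort and stage markers, Kit was at 334 to 355 CPM in Cre-positive and 375 to 426 CPM in Cre-negative libraries, with no overlap. Cd24a, of the sort marker CD24, was at 142 to 187 CPM in Cre-positive and 72.7 to 134 CPM in Cre-negative libraries, also with no overlap (edgeR, adjusted p = 0.558). Tfrc, of the sort marker CD71, was at 181 to 349 CPM in Cre-positive and 170 to 302 CPM in Cre-negative libraries, with overlap (log2 fold change 0.04). None of the 7 sort and stage markers, a list that includes Gata1, passed edgeR's test. The late erythroid genes Alas2 and Slc4a1 were at most 2.31 CPM in any library. Of 8 macrophage markers, 7 were at 0 in all 6 libraries. In such bulk samples, fewer cells of a type and less RNA per cell cannot be told apart.

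None of the 10 factors passed the test between Cre-positive and Cre-negative BFU-E (edgeR's quasi-likelihood test, adjusted p from 0.505 to 0.999, Benjamini-Hochberg over all tested genes, threshold 0.05). Over all 13117 genes, 0.122% were called higher and 0% lower by that rule. By unadjusted p under 0.05, 531 genes (4.05%) were higher and 549 (4.19%) lower, and of the factors 1 (Zfpm1) was higher. The log2 fold changes of the 10 factors ran from -0.19 to 0.33, with a median of 0.09 beside -0.01 over all tested genes. The median size of the change, whatever its sign, was 0.14 for the factors, beside 0.30 over all tested genes and 0.20 over the 8338 genes averaging 1000 counts or more. Of the 10, 8 had a positive and 2 a negative log2 fold change, where 49.2% and 50.8% of all tested genes did. The median of the 10 was 0.15 without Cre-negative replicate 2, 0.04 without Cre-negative replicate 3 and 0.18 with effective length offsets. For 2 factors, Zfpm1 and Lmo2, the Cre-positive libraries lay wholly above the Cre-negative ones, and for 7.53% of all tested genes they did. For none were they wholly below, against 7.66% of all tested genes.

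**Figure D1:**
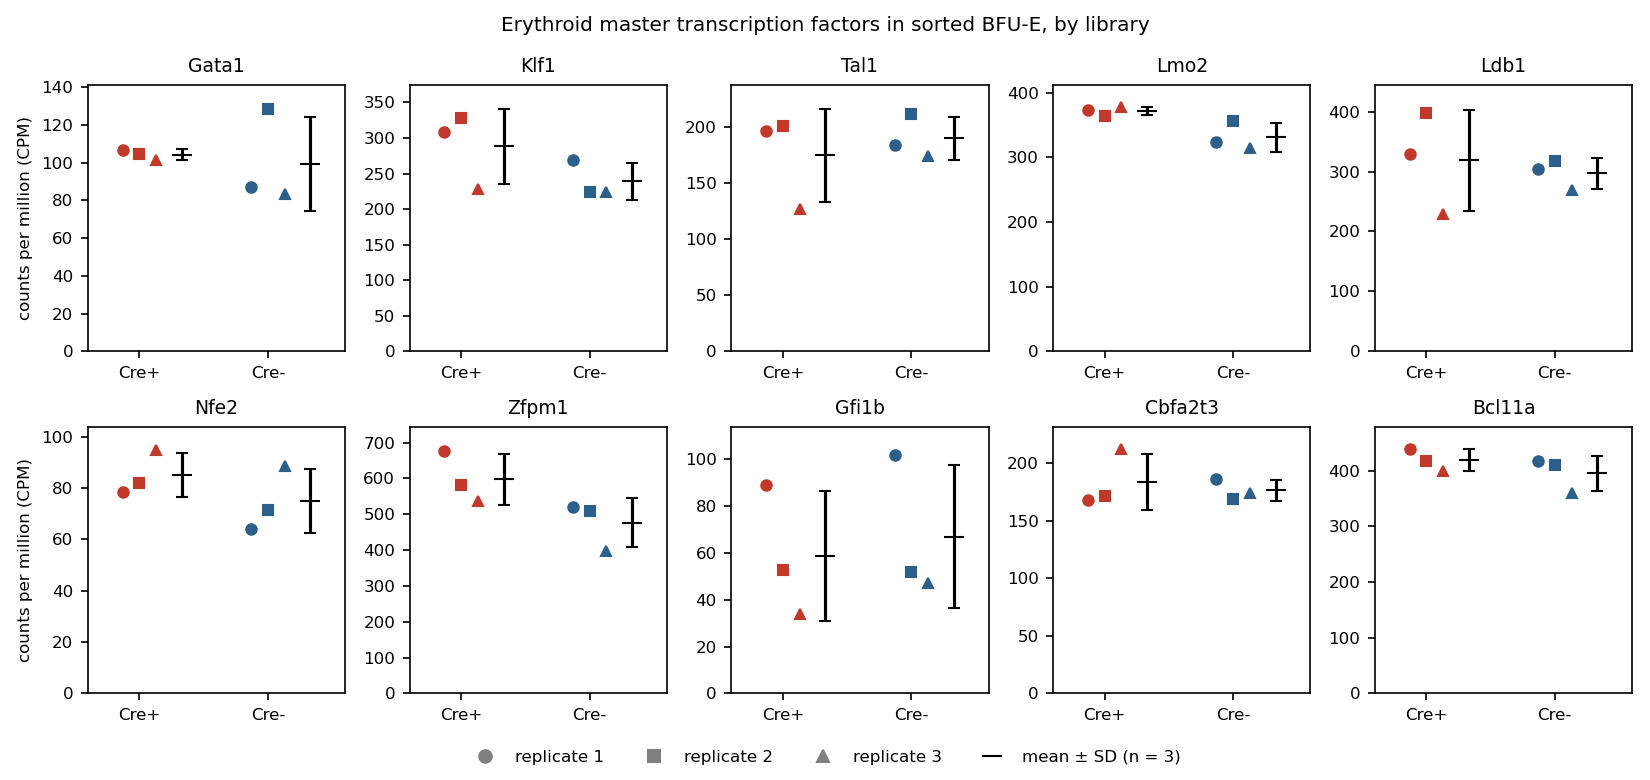
Level of each of the 10 factors in CPM (vertical axes, from 0) in the Cre-positive (Cre+, left) and Cre-negative (Cre-, right) libraries, with marker shape for the replicate number and bars for the mean ± SD of 3 libraries. The groups overlap for 8 factors, while the Cre-positive points lie above the Cre-negative ones for Lmo2 and Zfpm1, and Gfi1b spreads from 34.1 to 102 CPM.

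Gata1 (ENSMUSG00000031162.15) was at 107, 105 and 101 CPM in Cre-positive replicates 1, 2 and 3, and at 86.9, 128 and 83.3 CPM in the Cre-negative replicates. The Cre-positive values fell inside the Cre-negative range, which was the wider of the pair (SD 2.84 against 25.0 CPM). The log2 fold change was 0.07 with a 95% interval from -0.33 to 0.46, which spans a fold of 0.796 to 1.38 (edgeR, adjusted p = 0.999). Its sign turned to -0.02 without Cre-negative replicate 1 and to -0.05 without Cre-negative replicate 3, and the value was 0.29 without Cre-negative replicate 2.

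Zfpm1 (ENSMUSG00000049577.16), which encodes the GATA1 cofactor FOG1, was the member with the smallest p. It was at 676, 582 and 536 CPM in Cre-positive replicates 1, 2 and 3, and at 520, 510 and 399 CPM in the Cre-negative replicates. Every Cre-positive library was above every Cre-negative one, though the lowest Cre-positive and the highest Cre-negative value were close. The ratio of mean CPM was 1.25, and the log2 fold change was 0.33 with a 95% interval from 0.05 to 0.61 (edgeR, unadjusted p = 0.0255, adjusted p = 0.505). Under 16 alternatives the adjusted p ran from 0.0552 by DESeq2 to 0.852, and the log2 fold change from 0.21 to 0.40.

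Lmo2 (ENSMUSG00000032698.16), the LIM-only bridge, was at 373, 364 and 377 CPM in Cre-positive replicates 1, 2 and 3, and at 323, 356 and 314 CPM in the Cre-negative replicates. The groups did not overlap, and the mean was 1.12 times as high in Cre-positive libraries (log2 fold change 0.17, 95% interval -0.03 to 0.36, edgeR adjusted p = 0.712). Ldb1 (ENSMUSG00000025223.16), the dimerising scaffold, was at 330, 397 and 229 CPM in Cre-positive replicates and at 304, 318 and 269 CPM in Cre-negative replicates. Cre-positive replicates 2 and 3 held the highest and the lowest Ldb1 value of all 6 libraries, so the groups overlapped (log2 fold change 0.10, 95% interval -0.29 to 0.50, edgeR adjusted p = 0.989). The log2 fold change of Ldb1 was -0.09 without Cre-positive replicate 2 and 0.29 without Cre-positive replicate 3. In the reference annotation Ldb1 overlaps Pprc1, a gene on the opposite strand with 245 to 296 CPM in Cre-positive and 278 to 341 CPM in Cre-negative libraries. The strand setting of the counting is not given in the sources used here, so reads of that pair may be shared. Zfpm1, on the same strand, and Cbfa2t3, on the opposite one, lie within the span of the gene model Gm20388 in that annotation, for which no entry was matched in the tables.

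Tal1 (ENSMUSG00000028717.13), the DNA-binding partner in that complex, was at 196, 201 and 127 CPM in Cre-positive replicates 1, 2 and 3, and at 184, 212 and 174 CPM in the Cre-negative replicates. Cre-positive replicate 3 was below every other library, and the other libraries overlapped. The log2 fold change was -0.12 with a 95% interval from -0.51 to 0.27 (edgeR, adjusted p = 0.979), and it was 0.06 without Cre-positive replicate 3.

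Klf1 (ENSMUSG00000054191.10), the activator of globin and membrane genes, was at 309, 328 and 228 CPM in Cre-positive replicates 1, 2 and 3, and at 269, 224 and 224 CPM in the Cre-negative replicates. Cre-positive replicates 1 and 2 were the highest of the 6 libraries, while Cre-positive replicate 3 lay among the Cre-negative values. The ratio of means was 1.21 and the log2 fold change 0.27, with a 95% interval from -0.06 to 0.60 (edgeR, unadjusted p = 0.0934, adjusted p = 0.741). The value was 0.41 without Cre-positive replicate 3 and 0.17 without Cre-positive replicate 2. Nfe2 (ENSMUSG00000058794.13), the larger subunit of the NF-E2 dimer, was at 78.6, 82.0 and 94.6 CPM in Cre-positive replicates and at 64.2, 71.6 and 88.6 CPM in Cre-negative replicates. These groups overlapped (log2 fold change 0.19, 95% interval -0.19 to 0.56, edgeR adjusted p = 0.931).

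Of the repressor genes, Gfi1b (ENSMUSG00000026815.15) was the most variable. This zinc finger repressor was at 88.8, 52.6 and 34.1 CPM in Cre-positive replicates 1, 2 and 3, and at 102, 51.7 and 46.9 CPM in the Cre-negative replicates. Replicate 1 was the highest library in both groups, and over the 6 libraries the highest value was 2.99 times the lowest, against 1.20 to 1.74 times for the other 9 factors. The log2 fold change was -0.19 with a 95% interval from -1.04 to 0.66, so a fold as low as 0.485 or as high as 1.58 was within the interval (edgeR, adjusted p = 0.994). It was -0.63 without Cre-positive replicate 1, 0.08 without Cre-positive replicate 3 and 0.25 without Cre-negative replicate 1.

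Cbfa2t3 (ENSMUSG00000006362.17), which encodes the ETO2 corepressor of the TAL1 complex, was at 168, 172 and 212 CPM in Cre-positive replicates and at 187, 169 and 175 CPM in Cre-negative replicates. The groups overlapped and the log2 fold change was 0.06, with a 95% interval from -0.21 to 0.33 (edgeR, adjusted p = 0.995). Without Cre-positive replicate 3 it was -0.06. Bcl11a (ENSMUSG00000000861.16), known for silencing of embryonic and fetal globin genes, was at 440, 417 and 400 CPM in Cre-positive replicates and at 417, 410 and 360 CPM in Cre-negative replicates. These groups overlapped as well (log2 fold change 0.08, 95% interval -0.12 to 0.29, edgeR adjusted p = 0.957). The embryonic globin genes Hba-x and Hbb-bh1 had 0 counts in all 6 libraries, and Hbb-y was above 0 in 1 Cre-negative library alone, at 0.852 CPM. Of 3 globin genes with enough counts to be tested, none passed, and the adult alpha globin gene Hba-a2, which has a near-identical copy, was at 1.43 to 20.1 CPM in Cre-positive and 1.53 to 4.71 CPM in Cre-negative libraries.

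The levels of the factors can be ordered only after division by transcript length, as TPM (abundance per transcript, scaled to a common total) does. Lmo2 was highest, at 385 ± 9.92 TPM in Cre-positive and 360 ± 10.4 TPM in Cre-negative libraries (SD, n = 3 each). Ldb1 followed with 382 ± 80.5 TPM in Cre-positive and 335 ± 14.0 TPM in Cre-negative libraries, and overlapped Lmo2. The lowest Ldb1 value, 291 TPM, was also below the highest Klf1 value, 305 TPM, though Ldb1 was above Klf1 within each of the 6 libraries. Klf1 (266 ± 48.0 TPM in Cre-positive and 226 ± 22.9 TPM in Cre-negative libraries) and Zfpm1 (224 ± 34.7 and 191 ± 27.9 TPM in the same groups) overlapped each other. Bcl11a was in the middle at 113 to 140 TPM over the 6 libraries, with no overlap with Zfpm1 above or Nfe2 below. Gfi1b was above Bcl11a in Cre-positive replicate 1 (145 against 136 TPM). Cbfa2t3 was above it in Cre-negative replicate 2 (123 against 121 TPM). The lower 5, in the order Nfe2, Gata1, Gfi1b, Tal1 and Cbfa2t3, had overall means of 78.5, 72.5, 65.7, 62.8 and 59.5 TPM, and each overlapped the next. The top 5 held the same order in both groups. With 1 fixed length per gene, an alternative chosen after seeing the data, the first 7 kept this order and the last 3 were Tal1, Cbfa2t3 and Gfi1b. Klf1 was then above Zfpm1 in 3 of the 6 libraries, against all 6 in TPM. Gata1 had a mean level of 73.4 ± 1.38 TPM in Cre-positive and 71.7 ± 17.1 TPM in Cre-negative libraries.

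**Figure D2:**
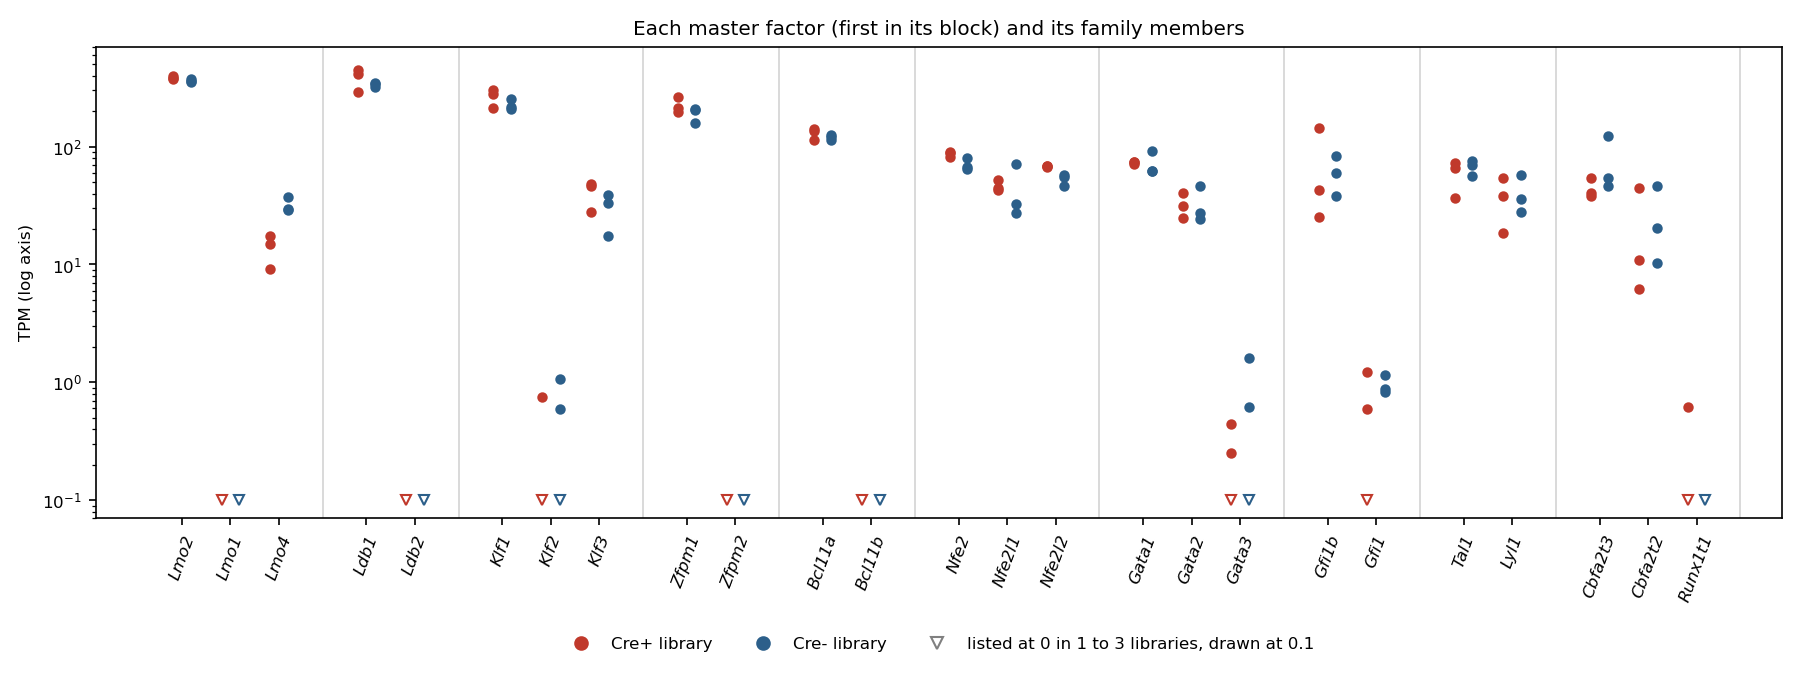
TPM on a log axis for each factor and for genes of its family, in Cre-positive (red, left) and Cre-negative (blue, right) libraries, 1 point per library, with values listed at 0 drawn as open triangles at 0.1. Families are ordered by the level of the factor, from Lmo2 to Cbfa2t3, and Lmo1, Ldb2, Zfpm2 and Bcl11b sit at 0 in all libraries.

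Ldb2, Zfpm2 and Bcl11b, the closest relatives of Ldb1, Zfpm1 and Bcl11a, and Lmo1 had 0 counts in all 6 libraries. Gfi1b made up 97.0% to 100% of the summed TPM of Gfi1b and Gfi1, and Klf1 82.0% to 92.1% of that of Klf1, Klf2 and Klf3. Gata1 made up 69.6% ± 5.32 of the summed TPM of Gata1, Gata2 and Gata3 in Cre-positive libraries and 68.2% ± 10.7 in Cre-negative libraries (SD, n = 3 each). Tal1 shared its family level with Lyl1, at 62.4% ± 6.53 in Cre-positive and 63.0% ± 11.5 in Cre-negative libraries. Nfe2 held 40.4% to 44.5% of the summed TPM of Nfe2, Nfe2l1 and Nfe2l2. The share of Cbfa2t3 in the summed TPM of Cbfa2t3, Cbfa2t2 and Runx1t1 varied most, from 47.3% to 85.9%.

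Within the LIM-only family, Lmo2 made up 96.2%, 97.6% and 95.8% of the family TPM in Cre-positive replicates 1, 2 and 3, and 92.4%, 90.9% and 92.4% in the Cre-negative replicates, without overlap. Lmo1 was at 0, so the rest was Lmo4, a paralog that also binds LDB1, which was at 17.2, 10.7 and 18.9 CPM in Cre-positive replicates and at 33.3, 31.8 and 30.8 CPM in Cre-negative replicates. All Cre-positive libraries were below all Cre-negative ones for Lmo4 (log2 fold change -1.04, standard error 0.30). Over all genes it missed the threshold (edgeR, unadjusted p = 0.0071, adjusted p = 0.313), and DESeq2 called it (adjusted p = 0.0141), in a background of 1.66% of genes called lower by DESeq2. Of 7 tested paralogs, Nfe2 relatives and Cbfa2t2 not counted, 6 had a negative log2 fold change and none passed edgeR's test. Of those negative, Gata3, Klf2 and Gfi1 averaged at most 1.35 CPM over the 6 libraries, and Klf3 was at -0.03. Gata2, which precedes Gata1 in the lineage, was at 58.7 to 100 CPM in Cre-positive and 63.5 to 113 CPM in Cre-negative libraries.

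The ratio of a pair of genes within a library does not depend on library scaling, and 6 pairs were compared as log2 ratios of TPM. The smallest p that an exact permutation test of 3 against 3 libraries can give is 0.1, so none could pass. Gata1 was 2.37, 2.97 and 1.77 times as high as Gata2 in Cre-positive replicates 1, 2 and 3, and 2.56, 3.30 and 1.32 times as high in the Cre-negative replicates. The groups overlapped almost wholly (difference of mean log2 ratios 0.05, two-sided exact permutation p = 1.0; adjusted over the 6 pairs, every p is 1.0). Klf1 was 22.6, 35.7 and 12.5 times as high as Fli1, an ETS factor of megakaryocytes, in Cre-positive replicates, and 12.7, 16.0 and 7.38 times as high in Cre-negative replicates. Replicate 3 was lowest in both groups, and the groups overlapped (difference of mean log2 ratios 0.91, exact permutation p = 0.3).

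The ratio of Gata1 to Spi1, the gene of the myeloid factor PU.1 that antagonises GATA1, depended on the unit. In TPM the ratio was 3.32, 1.27 and 3.91 in Cre-positive replicates and 2.04, 5.67 and 1.13 in Cre-negative replicates, with full overlap (difference 0.11 on the log2 scale, exact permutation p = 0.9). In CPM, which leaves out the estimated transcript length, it was 9.22, 7.58 and 6.08 in Cre-positive replicates and 2.86, 5.24 and 1.76 in Cre-negative replicates, with no overlap (difference 1.34, exact permutation p = 0.1). Spi1 itself was at 11.5 to 16.6 CPM in Cre-positive and 24.4 to 47.4 CPM in Cre-negative libraries. Its log2 fold change of -1.29 did not pass by edgeR (adjusted p = 0.27), was called lower by DESeq2 (adjusted p = 0.00245) and was 0.01 with effective length offsets. Spi1 is 1 of 8 tested factors of other lineages or earlier progenitors, of which 7 had a negative log2 fold change (median -0.17) and none passed. For Zfpm1 over Gata1, Tal1 over Lyl1 and Lmo2 over Ldb1 the differences were 0.17, -0.06 and -0.07, and the groups overlapped in each (exact permutation p = 0.4, 0.8 and 0.8).

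The deposited tables also give a mean transcript length per gene and library, which moves when reads are assigned to shorter or longer transcripts. For Gata1 it was 1902 bases in all 6 libraries, the length of the longest of its 3 listed transcripts in the reference annotation. For Klf1 it stayed between 1530 and 1534 bases. Cbfa2t3 was the most variable, at 4892, 5352 and 4671 bases in Cre-positive replicates 1, 2 and 3, and at 4184, 1838 and 4694 bases in the Cre-negative replicates. Cre-negative replicate 2 stood far below the rest, in a gene whose 7 listed transcripts span 408 to 7645 bases in the reference. The same library had the highest Cbfa2t3 TPM, 123 against 38.1 to 54.5 TPM in the other 5, while its CPM of 169 was the second lowest of the 6.

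Gfi1b was likewise at 967, 1705 and 1822 bases in Cre-positive replicates 1, 2 and 3, and at 1703, 1280 and 1765 bases in the Cre-negative replicates. Its shortest estimate went with the highest TPM, 145 in Cre-positive replicate 1. With effective length offsets the log2 fold change of Gfi1b became 0.27 and that of Cbfa2t3 -0.73 (edgeR, adjusted p = 0.993 and 0.775), so the sign of each depended on the length estimate. For no factor did the lengths of the groups separate (two-sided exact permutation p from 0.2 to 1.0, and from 0.6 to 1.0 adjusted over the 10 factors). For the other 6 factors the longest estimate was at most 1.29 times the shortest.

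**Figure D3:**
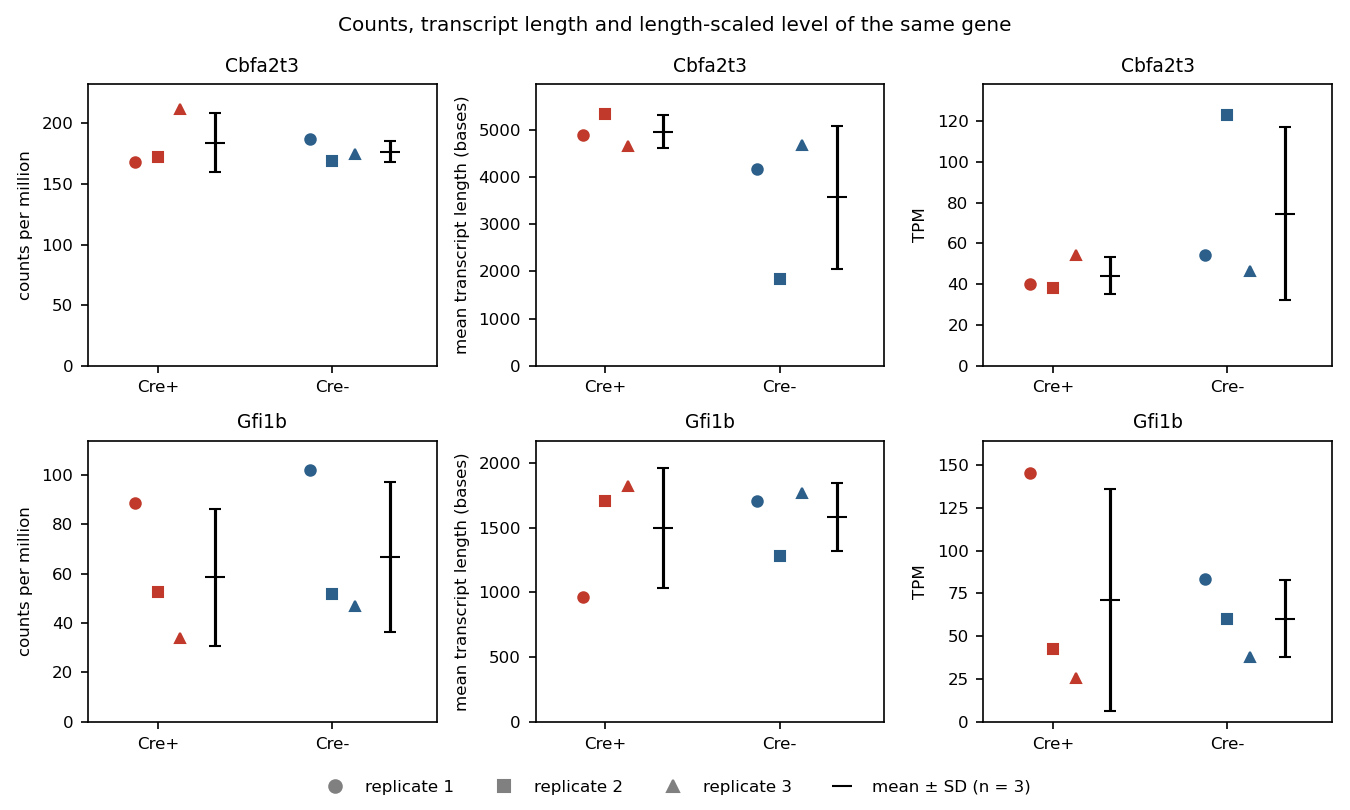
CPM, mean transcript length in bases and TPM (vertical axes, from 0) of Cbfa2t3 (top) and Gfi1b (bottom) in Cre-positive (Cre+, left) and Cre-negative (Cre-, right) libraries, with the mean ± SD of 3 libraries. The library with the shortest length estimate, Cre-negative replicate 2 for Cbfa2t3 and Cre-positive replicate 1 for Gfi1b, has the highest TPM.

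Among 7 tested E proteins (partners of TAL1), LDB1-stabilising SSBP proteins and the LDB1 ubiquitin ligase Rlim, none passed, 3 had positive log2 fold changes and the median was -0.06. Tcf12, which encodes the E protein HEB, was at 149, 144 and 182 CPM in Cre-positive replicates and at 133, 95.4 and 120 CPM in Cre-negative replicates, with no overlap (log2 fold change 0.45, edgeR unadjusted p = 0.0166, adjusted p = 0.433). Tcf3, which encodes E2A, was at 382, 337 and 373 CPM in Cre-positive replicates and at 426, 448 and 391.6 CPM in Cre-negative replicates, again with no overlap but in the other direction (log2 fold change -0.21, edgeR unadjusted p = 0.0425, adjusted p = 0.579).

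Of 18 tested corepressor genes recruited by these factors, none passed edgeR's test and the median log2 fold change was 0.01. The NuRD remodeller Chd4 was at 1238 to 1359 CPM in Cre-positive and 1190 to 1409 CPM in Cre-negative libraries. Mbd2, which encodes a methyl-CpG binding subunit of NuRD, was at 355, 364 and 332 CPM in Cre-positive replicates and at 231, 269 and 244 CPM in Cre-negative replicates. All Cre-positive libraries were higher, by a ratio of 1.41 (log2 fold change 0.50, 95% interval 0.29 to 0.71, edgeR adjusted p = 0.133). DESeq2 called Mbd2 higher (adjusted p = 4.38e-06; 1.79% of genes were called higher), as did edgeR restricted to genes that averaged 1000 counts or more (adjusted p = 0.029), where 0.696% were called higher and 0.312% lower. Irf2bp2, which encodes a corepressor that binds ETO2, did not pass at a log2 fold change of -0.36 (adjusted p = 0.567).

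NFE2 binds DNA only as a dimer with a small MAF protein. Mafg was at 74.0, 36.2 and 62.7 CPM in Cre-positive replicates and at 45.4, 34.7 and 40.9 CPM in Cre-negative replicates. Mafk was at 32.5 to 51.7 CPM in Cre-positive and 30.6 to 69.9 CPM in Cre-negative libraries, and Maff was at 0 in all Cre-positive libraries and at most 2.43 CPM in Cre-negative ones. Groups overlapped for both Mafg and Mafk. Bach1, which encodes a repressor that competes for the same sites, was at 21.1, 36.8 and 49.8 CPM in Cre-positive replicates and at 57.5, 48.8 and 61.1 CPM in Cre-negative replicates, with a small overlap (log2 fold change -0.64, edgeR adjusted p = 0.639). The relative Nfe2l2, which encodes the stress factor NRF2, was at 130, 132 and 129 CPM in Cre-positive replicates and at 104, 107 and 82.9 CPM in Cre-negative replicates, without overlap (log2 fold change 0.41, adjusted p = 0.402). None of the 6 tested genes of this list passed.

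Of 12 matched genes known to be activated by KLF1, 10 were tested, none passed edgeR's test over all genes, and all 10 had a positive log2 fold change, where 49.2% of all tested genes did. The median was 0.72, beside -0.01 over all tested genes and 0.27 for Klf1 itself. One of the 10 is Bcl11a. The higher values of Kel and Sptb in these libraries were known when the list was written, so its direction is not independent evidence. Sptb, which encodes beta-spectrin of the membrane skeleton, was at 274, 236 and 173 CPM in Cre-positive replicates and at 130, 126 and 79.6 CPM in Cre-negative replicates, without overlap (log2 fold change 1.03, standard error 0.22, edgeR adjusted p = 0.184). Kel, a blood group antigen gene, was at 35.9, 52.3 and 47.5 CPM in Cre-positive replicates and averaged 18.2 ± 3.32 CPM (SD, n = 3) in Cre-negative replicates, of which the highest was at 21.0 CPM, also without overlap (log2 fold change 1.32, standard error 0.26, adjusted p = 0.156). Both were called higher by DESeq2 and, among genes averaging 1000 counts or more, by edgeR (adjusted p = 0.0163 for Sptb and 0.0397 for Kel). At the low end, the adhesion receptor gene Cd44 was at 0.08 on the log2 scale, with a 95% interval from -0.20 to 0.35.

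Among genes averaging 1000 counts or more, 9 KLF1-activated genes had a median of 0.41, and with effective length offsets the median was 1.13. Leaving out each library in turn gave medians from 0.66 without Cre-positive replicate 1 to 1.18 without Cre-negative replicate 1, over 10 to 12 genes. Of the genes tested in those fits, at most 2 had a negative value.

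Of 13 tested genes known to be activated through GATA1, none passed and the median log2 fold change was 0.26. In 10 it was positive, where 49.2% of all tested genes had a positive value. E2f2 of this list was also counted among the KLF1-activated genes. Fech, which encodes the last enzyme of heme synthesis, was at 272, 200 and 187 CPM in Cre-positive replicates and at 179, 175 and 129 CPM in Cre-negative replicates, without overlap (log2 fold change 0.45, edgeR unadjusted p = 0.0278, adjusted p = 0.519). Rhag, which encodes the Rh-associated glycoprotein, was at 99.4, 63.4 and 41.1 CPM in Cre-positive replicates and at 51.7, 47.6 and 21.1 CPM in Cre-negative replicates, with overlap (log2 fold change 0.76, adjusted p = 0.702). Epor, the erythropoietin receptor gene, was at 63.8, 61.6 and 39.6 CPM in Cre-positive replicates and at 55.7, 38.4 and 30.5 CPM in Cre-negative replicates. The median of this list rested on single libraries: it was 0.05 without Cre-positive replicate 1, 0.49 without Cre-positive replicate 3 and 0.44 without Cre-negative replicate 2.

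Of 8 tested genes known to be repressed through GATA1 as the lineage matures, none passed edgeR's test. The median log2 fold change was -0.18, and 7 were negative, where 50.8% of all tested genes were. Gata2, Lyl1, Spi1, Myb and Hhex of this list were also counted above among paralogs or factors of other lineages, so these counts overlap. Myc, a driver of progenitor growth, was at 286, 254 and 232 CPM in Cre-positive replicates and at 337, 367 and 338 CPM in Cre-negative replicates, without overlap (log2 fold change -0.43, edgeR adjusted p = 0.225, DESeq2 adjusted p = 0.000426). Kit, the stem cell factor receptor gene and a sort marker, also did not overlap between groups (log2 fold change -0.19, edgeR adjusted p = 0.614), and neither did Spi1. The median was -0.11 without Cre-positive replicate 1, -0.09 without Cre-negative replicate 3 and -0.08 with effective length offsets.

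**Figure D4:**
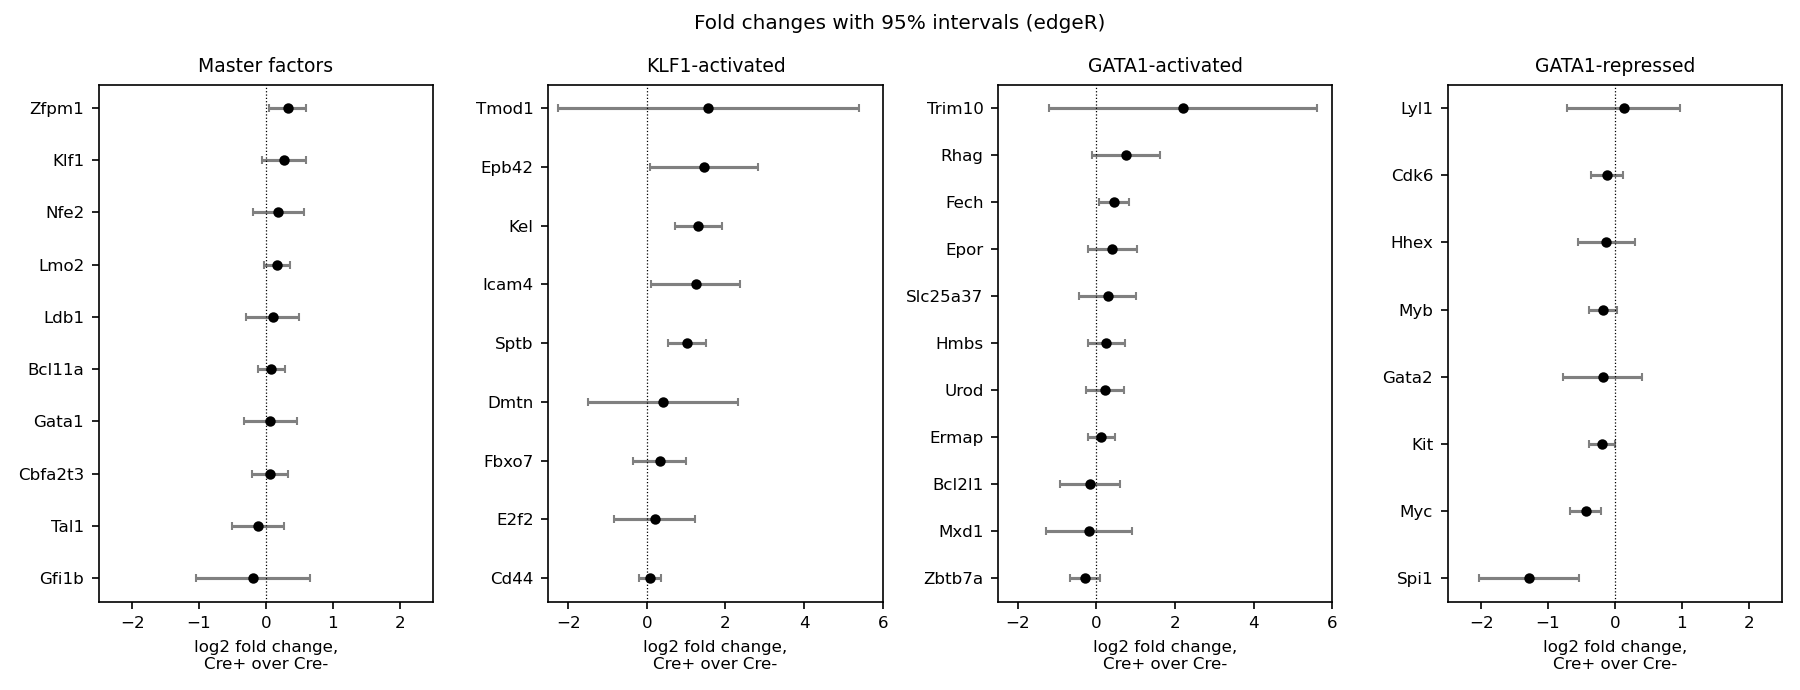
Log2 fold change of Cre-positive over Cre-negative libraries (horizontal axes, of different width in the middle panels) with 95% intervals from edgeR for the 10 factors and for the tested genes reported here that are known to be activated by KLF1, activated through GATA1 or repressed through GATA1. E2f2 is drawn under KLF1, and Bcl11a with the factors. The factors lie between -0.19 and 0.33, and the 9 KLF1-activated genes drawn have values above 0.

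Of 11 neutrophil and monocyte markers, 8 were tested and none passed, 7 had a negative log2 fold change, and Ly6c2, S100a8 and S100a9 were at 0 in all 6 libraries. Their summed level was 228 to 516 CPM in Cre-positive and 569 to 1505 CPM in Cre-negative libraries, without overlap, and most of these counts were of Mpo (log2 fold change -1.58, edgeR adjusted p = 0.235). The 10 lymphoid markers summed to 1.59 to 10.6 CPM in Cre-positive and 41.4 to 136 CPM in Cre-negative libraries, with Cd3e and Dntt at 0 throughout, and all 6 tested had negative log2 fold changes. The 10 stem and multipotent progenitor markers summed to 98.8, 86.5 and 208 CPM in Cre-positive replicates and to 166, 155 and 355 CPM in Cre-negative replicates, which overlap. Of 9 tested, 7 had a negative log2 fold change, the median was -0.27, and Slamf1 (0.73) and Hoxa9 (0.60) were positive. Megakaryocyte markers, which share Gata1, Tal1, Zfpm1, Nfe2 and Gfi1b with red cells as regulators, summed to 64.8 to 106 CPM in Cre-positive and 54.7 to 95.5 CPM in Cre-negative libraries. Of the 9 tested, 4 were positive. Mast cell, basophil and eosinophil markers summed to at most 13.0 CPM, hepatocyte markers to at most 12.4 CPM, and endothelial and stromal markers to 14.3 to 42.4 CPM in Cre-positive and 39.98 to 76.3 CPM in Cre-negative libraries. None of the tested markers in these lists passed edgeR's test over all genes. Flt3, a receptor gene of multipotent progenitors, was at 7.04 to 23.7 CPM in Cre-positive and 37.3 to 94.1 CPM in Cre-negative libraries, and the immunoglobulin gene Ighm at 0 to 2.42 CPM and 17.2 to 51.5 CPM in the same groups. Among genes averaging 1000 counts or more, edgeR called Mpo (adjusted p = 0.0222), Ighm (adjusted p = 0.0397) and Flt3 (adjusted p = 0.0318) lower in Cre-positive libraries. DESeq2 called the granule genes Lyz2 (adjusted p = 0.000481) and Prtn3 (adjusted p = 0.0065) and the lymphoid receptor gene Il7r (adjusted p = 0.00277) lower. It did not call Mpo, Ighm or Flt3. Of all genes in each fit, DESeq2 called 1.66% lower, and edgeR at 1000 counts or more called 0.312% lower. Without Cre-positive replicate 3, edgeR also called the recombinase gene Rag1 lower (adjusted p = 0.0475), and no other setting called it. The part of these other cells or programmes in the differences above was not tested.

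Library by library, replicate 3 of each group had the highest summed level of neutrophil and monocyte markers and of stem and multipotent markers within its group. It also had the lowest summed level of the 10 factors, at 2340 CPM in Cre-positive replicate 3 against 2700 and 2766 CPM in the other Cre-positive libraries. In Cre-negative replicate 3 the sum was 2132 CPM, against 2451 and 2458 CPM in the other Cre-negative libraries. Gata1, Klf1, Tal1, Ldb1, Zfpm1, Gfi1b and Bcl11a were each lowest in replicate 3 of both groups, and Nfe2 was highest there. No test was made of this pattern.

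**Figure D5:**
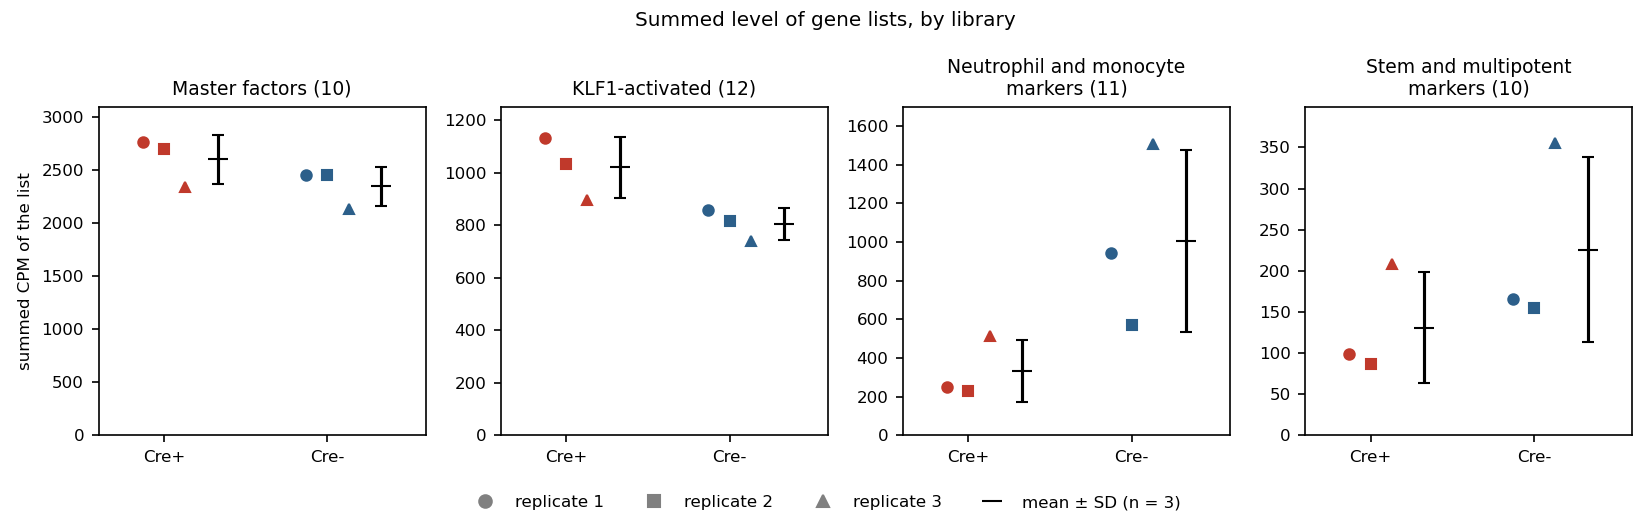
Summed CPM (vertical axes, from 0) of the 10 factors, 12 KLF1-activated genes, 11 neutrophil and monocyte markers and 10 stem and multipotent markers in Cre-positive (Cre+, left) and Cre-negative (Cre-, right) libraries, with the mean ± SD of 3 libraries. Replicate 3 (triangles) is the lowest of its group for the first 2 lists and the highest for the marker lists.

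The genes most like Gata1 over the 6 libraries, by the root mean square difference of centred log2 CPM among the same 8338 abundant genes, were Rpl39, Ints11, Pbdc1, Rps21 and Polr3e, at 0.05 to 0.07. No other member was among these 5.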

How the data were processed

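Total RNA of 6 sorted samples was sequenced from libraries of a stranded SMARTer Pico kit, per the labels. The authors' tables were made with STAR 2.5.3a and RSEM 1.3.0 on GRCm39, per the submitters' processing notes. Neither the strand setting nor the annotation release is given in the sources used here. Per the file headers, each deposited table gives an expected count, TPM and transcript length per gene. Of the expected counts, 2.64% were not whole, and they were rounded before testing, which changed library totals by at most 1e-05%. Symbols matched 52081 of 55359 entries.

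Genes passing edgeR's filterByExpr (13117) were tested with edgeR 4.0.16 (TMM factors 0.988 to 1.02, glmQLFTest) in R 4.3.3, Cre-positive over Cre-negative, with Benjamini-Hochberg adjustment. The common biological coefficient of variation was 85.4%, and genes seen in 1 library had a median of 108 reads there. Reads may therefore not be independent molecules, which was not tested. Fold changes are fitted or, as ratios, of mean CPM. Log2 ratios of TPM used a pseudocount of 0.1. Single values were compared by two-sided exact permutation. Alternatives used DESeq2 1.42.0, limma 3.58.1 (voom and log2(TPM + 1)), other scalings and filters, length offsets, a replicate block and leaving out each library. The script was tested on simulated data.

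The members and the 19 lists were chosen with earlier results of these data known. By rule, all members, the genes of each ratio and, in each list, up to 2 genes with the smallest p were to be named, and some lists are given by counts alone. Other genes, such as Chd4, Mafg, Mafk, Maff, Epor, Cd44, Prtn3 and Rag1, were chosen for their roles or calls after their values were seen. A gene of the GATA1-activated list is counted but not reported here. Promoter sequences were not analysed here, and reference coordinates, of another build, served only to list genes that overlap a member.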

Additional observations from a re-analysis of the deposited data

How the results depend on the processing

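None of the 10 factors passed under any of 16 alternatives (160 values). Klf1, Lmo2, Nfe2, Zfpm1 and Bcl11a kept a positive log2 fold change in all of them. Over all genes, 16 were called higher and 0 lower. Those counts were 33 and 6 with no filter, 58 and 26 with a mean of at least 1000 counts, 235 and 218 by DESeq2, and 6 higher by limma on log2(TPM + 1) and with length offsets. Leaving out 1 library gave 7 to 15 higher and 0 to 3 lower. The replicate block gave 38 higher and 18 lower, with Sptb among those higher (edgeR adjusted p = 0.00739) and Mpo (adjusted p = 0.000868) and Flt3 (adjusted p = 0.0105) among those lower. In deviations from the group means of log2 CPM, same-numbered libraries correlated at 0.026, 0.0534 and 0.0725, under the 0.1 asked here to take numbers as pairs. Each library still correlated best with its own number, which is a hint from the data. The design text gives 3 litters of 2 samples each, but no label ties a number to a litter. The main tests therefore left litters out, and only the replicate block used the numbers. Signs reversed for Gfi1b (0.27 with length offsets), Cbfa2t3 (-0.62 by limma on TPM, -0.73 with length offsets), Gata2 (0.0058 by limma on TPM, 0.013 with length offsets), Spi1 (0.0093 with length offsets), Lyl1 (-0.19 by limma on TPM, -0.11 with length offsets), Hnf4a (2.54 by voom, 2.13 with the replicate block) and Polr3e (0.017 by voom, 0.029 by limma on TPM, 0.011 with the replicate block, 0.050 with length offsets), and for the Lmo2 over Ldb1 log2 ratio (0.10 in CPM). The cause was not tested. Leaving out 1 library gave log2 fold changes of -0.047 to 0.29 for Gata1, -0.23 to 0.063 for Tal1, -0.089 to 0.29 for Ldb1, -0.63 to 0.25 for Gfi1b, -0.056 to 0.12 for Cbfa2t3, -0.46 to 0.091 for Gata2, -0.20 to 0.45 for Lyl1, -1.42 to 0.46 for Cpa3, -0.27 to 2.04 for Hba-a2, -0.61 to 2.76 for Hdc, -1.08 to 2.52 for Hnf4a, -0.032 to 0.22 for Ints11, -0.11 to 0.16 for Polr3e and -0.051 to 0.22 for Rpl39. Log2 ratio differences ran from -0.33 to 0.33 for Gata1 over Gata2, -0.42 to 0.75 for Gata1 over Spi1, -0.28 to 0.059 for Lmo2 over Ldb1 and -0.46 to 0.20 for Tal1 over Lyl1. Length differences in bases ran from -303.5 to 11.04 for Bcl11a, -246 to 181 for Gfi1b, -1.38 to 0.62 for Klf1 and -48.2 to 422 for Tal1. With 3 libraries a group, the 95% interval of Gfi1b, the widest of the factors, still holds folds from 0.485 to 1.58. Those of Gata1 and Bcl11a hold folds from 0.796 to 1.38 and from 0.92 to 1.22.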
